A study of Mus musculus with 12 samples.

Results

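To evaluate how far transcripts of Purkinje cells were present in sorted cerebellar glia, the rows of 8 genes were read from the 24421 genes of an expression table of mouse cerebellum: Pcp2, Calb1, Car8, Itpr1, Ppp1r17, Pvalb, Gng13 and Slc1a6. The genes were chosen by symbol as transcripts known from Purkinje cells, and all 8 were found and passed the filter on low values. The cells came from Aldh1l1-GFP reporter mice on the C57/BL6J background, in which regulatory sequence of the astrocyte gene Aldh1l1 drives green fluorescent protein (GFP), and no other allele or treatment is named for any group. Cerebella of both sexes were dissociated on postnatal day 1 (P1), P7, P14 or P28, GFP-positive cells were sorted, and RNA was sequenced in 3 libraries per age, 12 in all. Neither the labels nor the methods say whether a library is 1 animal or a pool, so p-values measure the spread between libraries.

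Purkinje cells are the inhibitory output neurons of the cerebellar cortex. In the mouse they are born before birth, and their dendrites and synapses grow during the first postnatal weeks. Glutamate from parallel and climbing fibers raises calcium in their dendrites, partly through metabotropic receptors, a Gq protein and the inositol trisphosphate (IP3) receptor, and the cells hold large amounts of calcium buffers and of proteins that tune this pathway. Bergmann glia, the astrocytes of the molecular layer, have their cell bodies beside those of Purkinje cells and wrap their dendrites. None of the 8 genes is used by Purkinje cells alone. In bulk RNA, fewer cells of a type and less RNA per cell cannot be told apart, and whether the reads came from Purkinje cells, from fragments or free RNA of them, from other neurons or from the glia themselves was not tested.

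The libraries held 6399499 to 14733985 reads on genes. Values are normalized counts, that is, reads divided by the size factor of the library. Finding no read of a gene in a library is compatible with an expected count of up to 3 reads. That count is worth 1.85 to 4.38 normalized counts depending on the library. All 10 astrocyte markers examined were detected at every age, and together they took 0.698% to 0.843% of reads at P1 and less at P7 (0.357% to 0.645%), then 1.69% to 2.05% at P14 and up to 3.74% at P28, where the lowest library had 3.44%. Other cell types were present as well. Oligodendrocyte genes reached 3.06% to 3.59% of reads at P14 and choroid plexus genes up to 1.52% at P7. The 8 Purkinje cell transcripts took 0.0111% to 0.0150% of reads at P1. The range at P7 was 0.0190% to 0.0289%, close to that at P14 of 0.0178% to 0.0214%, and P28 was widest with 0.0136% to 0.0351%. Between 53.4% and 87.0% of their summed level in a library was Itpr1 alone, so the sum mostly followed that gene.

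The 8 transcripts did not move as a group. Pcp2, Pvalb and Gng13 were scarce at P1 and P7 and rose together at P14, Itpr1 rose and Car8 fell from P1 to P7, Slc1a6 was lower at P28 than at P1, and Calb1 and Ppp1r17 passed no test between any ages. Differences between ages were tested with limma on log2(normalized count + 1) in one fit of the 12 libraries over 15464 genes, and a gene was called at a Benjamini-Hochberg adjusted p under 0.05. On that scale the fold of a gene with few reads comes out too small.

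The promoter sequences are shown because Pcp2, Pvalb and Gng13 rose together and Slc1a6 went the other way. Of the 8 members, 4 matched the RefSeq promoter table (GRCm38.p6), with 9 start sites in all. The 100 bases before the first listed start of each gene read as follows from 5′ to 3′, with AGGTCA in capitals, the half-site bound by nuclear receptors such as RORα, a transcription factor that Purkinje cells need to mature.
Pcp2, chr8:3625548-3625647, minus strand: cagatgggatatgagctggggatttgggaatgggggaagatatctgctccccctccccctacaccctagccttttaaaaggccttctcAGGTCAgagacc
Pvalb, chr15:78206401-78206500, minus strand: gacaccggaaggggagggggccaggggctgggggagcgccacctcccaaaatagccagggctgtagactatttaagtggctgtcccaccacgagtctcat
Gng13, chr17:25717072-25717171, plus strand: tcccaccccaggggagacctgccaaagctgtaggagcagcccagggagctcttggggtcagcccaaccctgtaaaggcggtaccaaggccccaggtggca
Slc1a6, chr10:78780396-78780495, plus strand: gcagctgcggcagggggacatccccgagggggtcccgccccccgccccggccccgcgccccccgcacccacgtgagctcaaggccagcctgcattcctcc
AGGTCA was searched on both strands over 250 bases before and 50 after each start. It was found in 3 of the 9 windows, all of Pcp2, where 2 of the 3 windows overlap and share the match. Of all 32851 promoters listed, 16.3% hold it, and it is in none of the windows of Pvalb, Gng13 or Slc1a6. A match describes letters only and says nothing about binding.

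**Figure D1:**
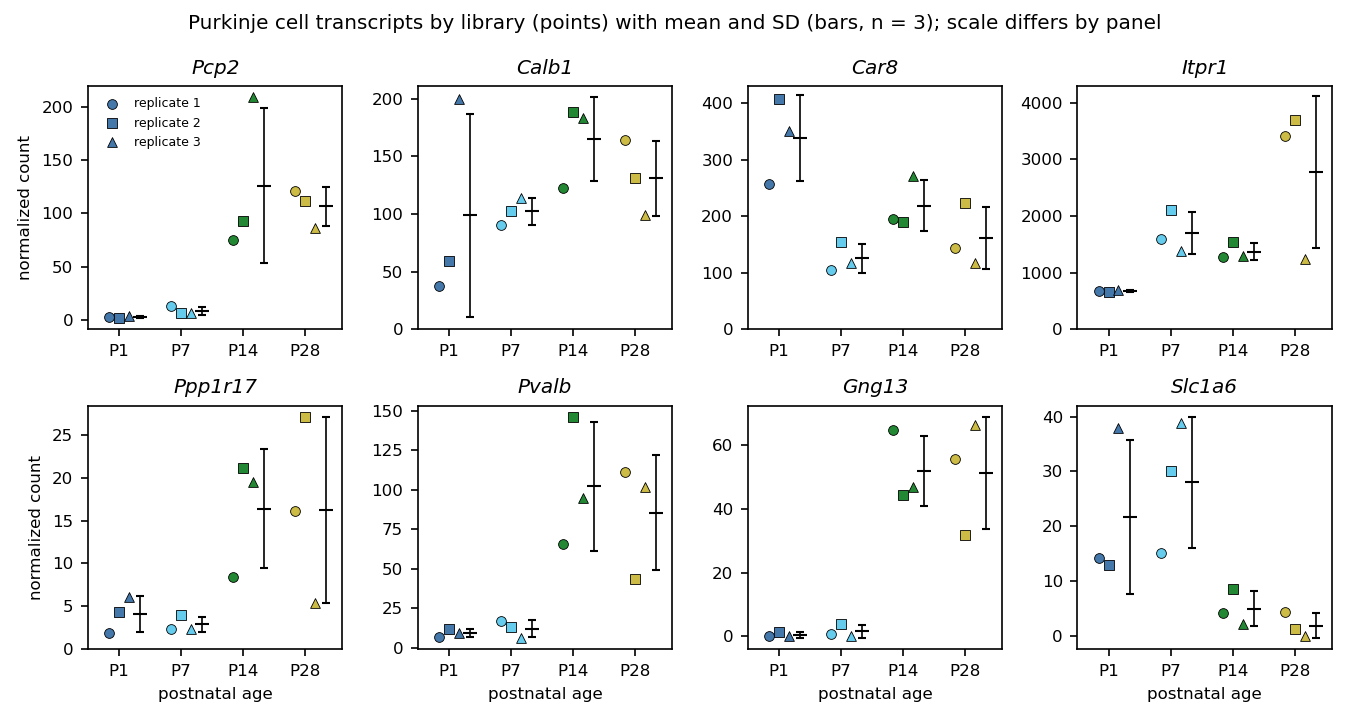
Normalized counts (vertical axes, linear and different in each panel) of the 8 Purkinje cell transcripts by postnatal age, 1 point per library, with horizontal ticks for the mean and bars for the SD of 3 libraries. Pcp2, Pvalb and Gng13 lie near the bottom at P1 and P7 and higher in all 6 libraries of P14 and P28, Slc1a6 shows the opposite order, and Itpr1 at P28 has 2 libraries at 3412 and 3685 and 1 at 1235.

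Pcp2 (Purkinje cell protein 2, also called L7; chr8:3623371-3625545 in GRCm38, the build called mm10) encodes a modulator of Gi and Go proteins and is among the most restricted Purkinje cell transcripts of the cerebellum. Its normalized counts were 2.46, 1.43 and 3.03 in replicates 1, 2 and 3 of P1, 12.7, 6.54 and 6.20 at P7, 75.2, 93.1 and 209.6 at P14 and 121, 112 and 86.6 at P28. The ages P1 and P7 did not overlap with each other or with the later ages, P14 and P28 overlapped, and P14 replicate 3 was far above the other libraries. P1 rested on 10 reads and P7 on 29 over 3 libraries each, a ratio of 3.81 with an exact 95% counting interval of 1.8 to 8.76, and the limma difference of 1.49 (log2) did not pass (adjusted p = 0.232). Between P7 and P14, Pcp2 rose by 3.66 ± 0.67 on the log2 scale (SE; limma adjusted p = 0.00128). P28 differed from P14 by -0.11 (95% interval -1.53 to 1.32, limma adjusted p = 0.939), and was above P7 by 3.55 (limma adjusted p = 0.000792). The exons of Pcp2 overlap those of Pet100 on the other strand, and whether strand was used in counting is not stated, so reads of the pair cannot be told apart in the overlap. Pet100 averaged 63.0, 82.7, 94.4 and 84.8 normalized counts at the 4 ages.

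Gng13 (chr17:25717171-25719406) encodes a G protein gamma subunit, best known from taste and retinal cells and also present in Purkinje cells. It was at 0, 1.43 and 0 normalized counts in the 3 libraries of P1 and at 0.796, 3.93 and 0 at P7, followed by 64.6, 44.4 and 46.7 at P14 and 55.5, 31.9 and 66.3 at P28. Every library of P14 and P28 was above every library of P1 and P7. The early level came from only 2 reads at P1 and 4 at P7, against 146 at P14. The ratio of P14 to P7 was 43 with an exact 95% counting interval of 16.4 to 160, and the limma change was 4.66 ± 0.81 (SE; adjusted p = 0.000892). The log2 difference of P28 from P14 was -0.06, within a wide 95% interval of -1.80 to 1.67. Exons of Gng13 overlap those of Chtf18 on the other strand, a gene of replication forks that went from 67.2 normalized counts on average at P7 to 5.998 at P14, opposite to Gng13.

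Pvalb (parvalbumin; chr15:78191114-78206400) encodes a calcium buffer of Purkinje cells and of molecular layer interneurons. Its normalized counts were 6.77, 12.2 and 9.09 at P1, 16.7, 13.1 and 6.20 at P7, 65.7, 146 and 94.5 at P14 and 111, 43.6 and 101.4 at P28. The first 2 ages overlapped, as did the last 2, and there was no overlap between the early and the late pair. Pvalb rose from P7 to P14 by 3.01 ± 0.67 (SE; limma adjusted p = 0.00496), and the difference of P28 from P14 was -0.29 (95% interval -1.72 to 1.14). The rise of Pcp2, Gng13 and Pvalb between P7 and P14 was called with any 1 library left out and under each other setting tried, with adjusted p-values up to 0.00902, 0.0101 and 0.033.

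Calb1 (calbindin; chr4:15881264-15908064), the calcium buffer most used to stain Purkinje cells, showed no such step. Its normalized counts were 37.5, 59.3 and 199.9 at P1, 90.8, 102 and 114 at P7, 123, 188 and 184 at P14 and 164, 131 and 98.7 at P28. The ages overlapped, except that every P14 library was above every P7 library, and P1 replicate 3 was the highest of all 12. Its spread at P1 was the widest of any member and age with a read in every library, 5.33 times from lowest to highest. No pair of ages passed the test, and P14 differed from P7 by 0.66 (95% interval -0.50 to 1.82, limma adjusted p = 0.449). Without P1 replicate 3, P28 was above P1 by 1.43 (limma adjusted p = 0.0463), against 0.74 (adjusted p = 0.310) with it.

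Itpr1 (chr6:108213096-108551109) encodes the IP3 receptor that releases calcium from the endoplasmic reticulum, very abundant in Purkinje cells and used at lower levels by many cell types. It had 683, 662 and 694 normalized counts at P1, 1601, 2110 and 1387 at P7, 1270, 1543 and 1289 at P14 and 3412, 3685 and 1235 at P28. The P1 libraries agreed closely and lay below all others, whereas P28 replicate 3 was below every P14 library. Itpr1 rose from P1 to P7 by 1.30 ± 0.32 (SE; limma adjusted p = 0.0215), a call that was lost without any library of P1 and without P7 replicate 1 or 2 (adjusted p up to 0.104). P28 was above P1 by 1.88 ± 0.32 (SE; limma adjusted p = 0.000452). The step from P14 to P28 was 0.87 (adjusted p = 0.0813) over all libraries and 1.38 (adjusted p = 0.00109) without P28 replicate 3. With all libraries it passed by DESeq2 (adjusted p = 0.0191) and edgeR (0.0435), so both that library and the tool changed the call. In P28 replicate 3 the summed level of 20 other Purkinje cell genes was 11690 normalized counts, against 14110 and 13700 in replicates 1 and 2, and choroid plexus genes (17740 against 104400 and 182100) and oligodendrocyte genes (101700 against 138200 and 141600) were also lowest there. Granule neuron genes summed to 15000, against 11690 and 14390. Astrocyte genes (472000 against 400200 and 431000) and Bergmann glia genes (106300 against 92720 and 81620) were highest in replicate 3. The part of these differences in the level of Itpr1 was not tested.

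Car8 (chr4:8143362-8239041) encodes a carbonic anhydrase relative without enzyme activity that binds the IP3 receptor and lowers its sensitivity to IP3. Its normalized counts were 258, 409 and 351 at P1, 104, 154 and 118 at P7, 196, 189 and 272 at P14 and 143, 223 and 118 at P28. All P1 libraries were above all P7 and P28 libraries. Car8 fell by 1.42 ± 0.35 on the log2 scale from P1 to P7 (SE; limma adjusted p = 0.0222) while its partner Itpr1 rose. This call was lost without P1 replicate 2 or 3 or P7 replicate 1 or 3 (adjusted p up to 0.112). The change from P1 to P28 was -1.09 (limma adjusted p = 0.0261), a call lost without P1 replicate 2 or 3 or P28 replicate 3, and in a fit of these 2 ages alone (adjusted p up to 0.0987).

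Ppp1r17 (chr6:56017497-56032689), also known as G-substrate, encodes a phosphatase inhibitor that is a target of cGMP-dependent kinase in Purkinje cells. It was rare at all ages, with 1.85, 4.29 and 6.06 normalized counts at P1, 2.39, 3.93 and 2.33 at P7, 8.47, 21.2 and 19.6 at P14 and 16.1, 27.1 and 5.41 at P28. The P14 libraries were all above those of P1 and P7, and P28 replicate 3 fell within the range of P1. The reads, 9 at P7 and 46 at P14, gave a ratio of 6.02 with an exact 95% counting interval of 2.91 to 14, but over the spread of the libraries the difference of 2.09 did not pass (limma adjusted p = 0.0841).

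Slc1a6 (chr10:78780496-78814765) encodes EAAT4, the glutamate transporter of Purkinje cell dendrites and spines. Its normalized counts were 14.2, 12.9 and 37.9 at P1, 15.1, 30.1 and 38.8 at P7, 4.24, 8.46 and 2.17 at P14 and 4.38, 1.18 and 0 at P28. Each library of P14 and P28 was below each library of P1 and P7, the reverse of Pcp2, Pvalb and Gng13. At P28 it was down to 4 reads in 3 libraries, against 91 at P1, a ratio of 0.0841 with an exact 95% counting interval of 0.0224 to 0.223. The limma change from P1 to P28 was -3.15 ± 0.86 (SE; adjusted p = 0.0117), and 0.0611 without P1 replicate 3. The step from P7 to P14 was -2.33 (limma adjusted p = 0.0716), and it passed by DESeq2 on recovered reads with -2.50 (adjusted p = 0.0439).

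Of the 8 members, 1 was higher (Itpr1) and 1 lower (Car8) at P7 than at P1, where 3.47% of all genes tested were higher and 4.24% lower. From P7 to P14, 3 were higher (Gng13, Pcp2 and Pvalb) against 10.8% of all genes, and 0 were lower against 10.0%. For the latter count, DESeq2 called 1 (Slc1a6), edgeR 0, and 1 had an unadjusted limma p under 0.05. From P14 to P28, 0 were higher and 0 lower by limma, where 5.68% and 8.76% of all genes were called. DESeq2, edgeR and the unadjusted limma p under 0.05 each gave 1 higher (Itpr1), and 0 lower. The shares of all genes given here are those of limma at an adjusted p under 0.05, and none is given for the other rules. Between P1 and P28, 4 were higher (Gng13, Pcp2, Pvalb and Itpr1) against 14.6% and 2 lower (Slc1a6 and Car8) against 20.0%. The median log2 change of the members was 0.42, 1.45, -0.23 and 1.75 in these 4 comparisons, and that of all genes tested 0.04, -0.09, -0.12 and -0.23. With scaling by library totals alone, the median of all genes tested moved to 0.10, -0.35, -0.35 and -0.67.

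**Figure D2:**
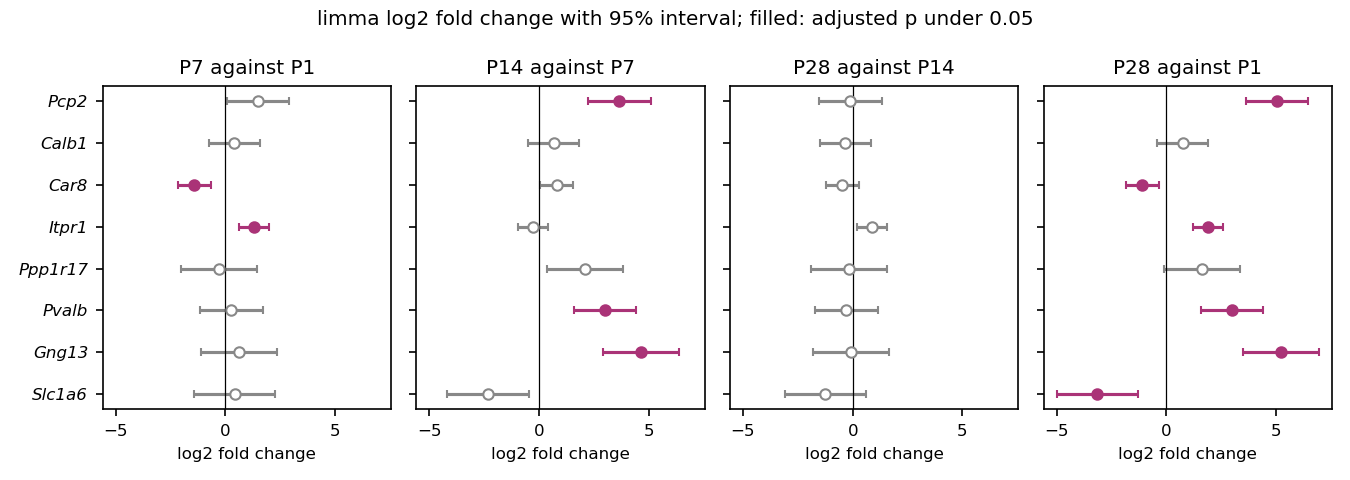
Log2 fold changes of the 8 members between ages (horizontal axes) by limma, with 95% intervals; filled points have an adjusted p under 0.05. Gng13, Pcp2 and Pvalb are filled and to the right of 0 in P14 against P7 and P28 against P1, and no point is filled in P28 against P14.

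By the order of its mean level, each member can be placed over the ages. For Pcp2, Pvalb and Gng13 the order was P14, P28, P7 and P1, and the gap between P28 and P7 passed (adjusted p = 0.000792, 0.00526 and 0.000487), while the neighbours on either side of it did not pass the test, although the libraries of Pcp2 at P7 and P1 did not overlap. For Itpr1 the order was P28, P7, P14 and P1, with only the last 2 apart (1.00, limma adjusted p = 0.0380). For Slc1a6 (P7, P1, P14, P28), Car8 (P1, P14, P28, P7), Calb1 (P14, P28, P7, P1) and Ppp1r17 (P14, P28, P1, P7) no neighbours in the order passed the test. These comparisons include P14 against P1, in which 10.4% of all genes were higher and 9.99% lower, and P28 against P7, in which 16.2% were higher and 23.0% lower.

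Compared per length, in RPKM (reads scaled by gene length and by the reads of the library), the order of the members also changed with age. At P1 the mean RPKM was highest for Car8 (9.82) and Itpr1 (7.68), followed by Calb1 (2.66), with Pcp2 at 0.155 and Gng13 at 0.0675. At P28 it was Itpr1 (23.4), Pvalb (6.78), Gng13 (5.45) and Pcp2 (5.28), followed by Car8 (3.46) and Calb1 (2.58), with Slc1a6 last at 0.0734. The transcripts were not in a fixed ratio to each other. The reads of Pcp2 over those of Calb1 in the same library, not corrected for length, lay between 0.0152 and 0.0656 at P1 and between 0.0544 and 0.14 at P7, but between 0.494 and 1.14 at P14 and between 0.741 and 0.877 at P28. The same ratio of Slc1a6 to Calb1 went the other way, from 0.189 to 0.377 at P1 to between 0 and 0.0268 at P28.

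Replicates of an age were compared as a measure of the spread of these transcripts between libraries. Whether that spread came from the animals, the sort, the library preparation or counting cannot be told apart in this design. P1 replicate 3 was the highest of its age for 5 of the 8 members and P14 replicate 2 also for 5, and P1 replicate 1 was highest for none. Some pairs of members shared their deviations, and others did not. After subtraction of the mean of each age, Pearson correlations of log2 values between pairs of members over the 12 libraries ran from -0.33 (Pcp2 with Gng13) to 0.77 (Itpr1 with Ppp1r17), and before it from -0.83 (Gng13 with Slc1a6) to 0.96 (Pvalb with Gng13). These correlations are descriptions over libraries that share their ages. The 7 members other than Itpr1 summed to 35.4, 54.8 and 69.8 RPM (reads scaled to the depth of the library) at P1, 28.04, 37.5 and 32.5 at P7, 53.0, 66.3 and 80.5 at P14 and 52.9, 47.0 and 37.7 at P28. The spread within an age was widest at P1, where the highest library had 1.97 times the lowest. Most of this sum at P1 was Car8 and Calb1. They had 28.4 and 4.14 of 35.4 RPM in replicate 1 and 40.3 and 23 of 69.8 RPM in replicate 3.

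Of 20 other genes known from Purkinje cells, all were in the table, 19 passed the filter, and Skor2, a transcription factor of immature Purkinje cells, did not, with 0 reads at P14 and P28. From P7 to P14, 8 rose and 2 fell. Among them Rgs8, a regulator of G protein signaling, rose by 3.65 (limma adjusted p = 0.00018) and Pcp4, a calmodulin regulator, by 1.83 (0.0027), while Lhx5, a factor of young Purkinje and other inhibitory neurons, had a change of -7.50 (0.00068). From P1 to P7, 3 rose, among them Cacna1a, a P/Q-type calcium channel, by 1.23 (limma adjusted p = 0.00178) and Rora by 0.78 (0.0298), and Dner, a Notch ligand, fell by 1.32 on the log2 scale (limma adjusted p = 0.000516). From P14 to P28, 2 rose, among them Rora, and 5 fell, among them Cacna1g, a T-type calcium channel, with -1.66 (limma adjusted p = 0.013) and Cacna1a with -1.10 (0.00359). The call of Rora at P7 was lost without P1 replicate 1 or 3 or P7 replicate 1 or 3 (adjusted p up to 0.144), that of Rora at P28 without P14 replicate 3 (adjusted p = 0.0526), and that of Cacna1g at P28 without P14 replicate 1 and in a fit of these 2 ages alone (adjusted p up to 0.0667). At P7 over P1, 3.47% of all genes tested were higher and 4.24% lower. The shares at P14 over P7 were 10.8% and 10.0%, and those at P28 over P14 were 5.68% and 8.76%. The median change of this list was 0.06, 0.76 and -0.20 in the 3 steps. Several of its members, such as Rora and Pcp4, are also used by other cerebellar neurons or by glia.

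Relatives of the members were set beside them per length. Slc1a3 (GLAST), the astrocyte transporter of the same family as Slc1a6, had a mean of 424, 275, 1315 and 2271 RPKM at the 4 ages, against 1.14, 1.51, 0.223 and 0.0734 RPKM for Slc1a6. Slc1a3 rose by 2.54 between P7 and P14 (limma adjusted p = 4.22e-06) and again by P28, by 1.04 (adjusted p = 0.0103, and 0.0527 without P14 replicate 3), the steps over which Slc1a6 had -2.33 and -1.25. Itpr2, the IP3 receptor of astrocytes, averaged 22.1, 24.0, 21.3 and 16.2 RPKM. No step of it passed, and each of its small changes had the other sign under at least 1 alternative (library totals for P14 against P7, and leaving out 1 library for the other 2 steps). Calb2 (calretinin), a calcium buffer that granule neurons use in place of Calb1, rose from P7 to P14 by 4.71 (limma adjusted p = 1.47e-05), from a mean of 2.38 to 51.6 RPKM. Over the 3 steps, 2, 9 and 3 of 18 relatives tested rose and 3, 1 and 3 fell. Of all genes tested, 3.47%, 10.8% and 5.68% were higher in these steps and 4.24%, 10.0% and 8.76% lower. Car10, a carbonic anhydrase relative like Car8, rose in each step, by 1.29, 2.67 and 1.17. Car2 and Car4, enzymes of the same family, rose by 2.71 and 2.55 at P14 over P7, the latter with an adjusted p of up to 0.107 when a library was left out, and Slc1a5, an amino acid exchanger, fell by 5.55 (log2) between P14 and P28, where it was down to 4 reads. Ocm, a relative of Pvalb, had no read.

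**Figure D3:**
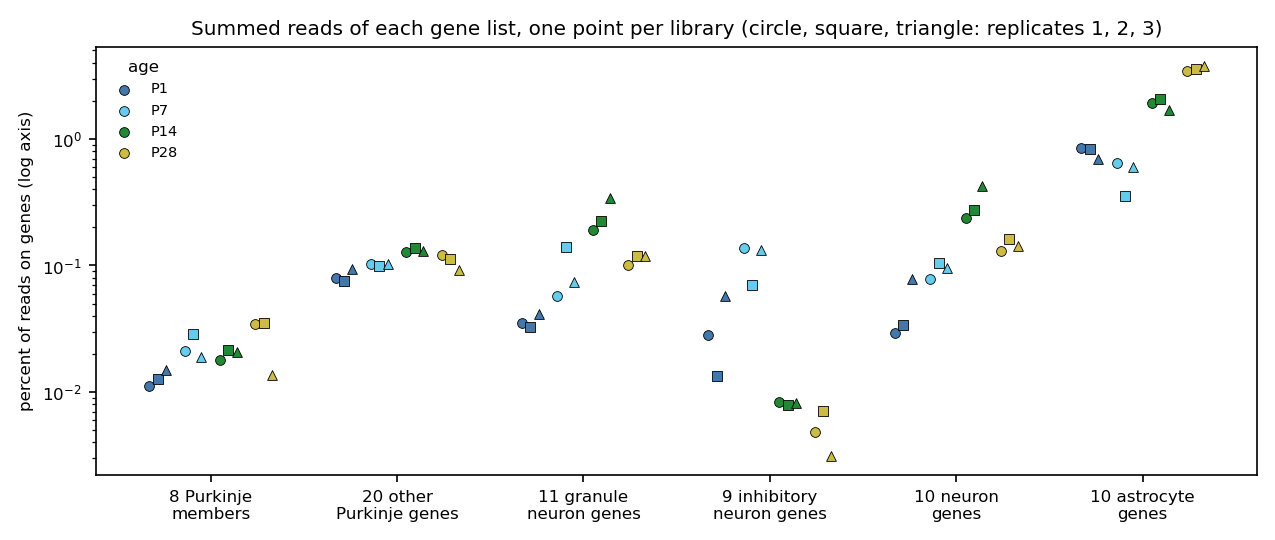
Percent of reads on genes (vertical axis, log scale) summed over the 8 members and 5 further gene lists, 1 point per library, colored by age, with symbols for replicates 1 to 3. The sum of the granule neuron and of the neuron genes is highest in the 3 libraries of P14, that of the inhibitory neuron genes in those of P7, and that of the astrocyte genes in those of P28.

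Markers of other neurons moved over the same ages, and their part in the change of the members was not tested. The 10 general neuron genes took 0.0293% to 0.0783% of reads at P1 and 0.0782% to 0.105% at P7. They reached 0.237% to 0.424% at P14 before 0.130% to 0.161% at P28, with 6 of 10 higher at P14 than at P7 and 0 lower. By the mean over all libraries, Snap25, of the synaptic vesicle fusion machinery, and Stmn2, of growing axons, were the most abundant of these. Snap25 averaged 2303 normalized counts at P7 and 21590 at P14, and Stmn2 2600 and 2500. The 11 granule neuron genes reached 0.190% to 0.343% at P14, with 8 higher and 0 lower than at P7. Their sum was highest in P14 replicate 3, as were Pcp2 and Car8, while 5 members were highest in P14 replicate 2 and Gng13 in replicate 1. Over all libraries Fat2 and Reln were the most abundant of that list. By contrast, the 9 inhibitory neuron genes were at 0.0704% to 0.139% of reads at P7 and at 0.00788% to 0.00831% at P14, with 7 lower. Tfap2b and Kit had the highest means of that list over all libraries, 3585 and 1691 normalized counts at P7 and 85.7 and 233 at P14. This list holds genes of interneurons and their precursors, some of which Purkinje cells also use (Gad1, Gad2 and Slc32a1). Of the 5 granule neuron precursor genes, with Mfap4 and Nhlh2 the most abundant over all libraries, 4 were lower at P14 than at P7. Of the 10 astrocyte genes, with Slc1a3 and Slc1a2 the most abundant over all libraries, 8 rose between P7 and P14, and 9 rose in the step to P28. The 4 Bergmann glia genes, among them Gria4 and Gria1, rose from P7 to P14 as well.

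The genes most like the members were found by Pearson correlation with the mean of the 8 standardised profiles over the 12 libraries, given without a test because the libraries share their ages and size factors. The 10 with the highest values were Dgkg (0.943), Nrip2, Tex2, Cnnm1, Scn2a1, Eef1a2, Col19a1, Gm996, Dnm1 and Slc6a17 (0.907). Within ages, that is, after subtraction of the mean of each age, they were Mpp3 (0.934), Eml4, Pdgfb, Dixdc1, 2900079G21Rik, Slc6a6, Tax1bp1, Bvht, Whamm and Rbm12b2 (0.871). For single members, the nearest gene was Cbln3, a granule neuron gene, for Pcp2 (0.984), Eno2, a neuronal enolase, for Pvalb (0.968), and Rtn4rl1, a Nogo receptor relative, for Gng13 (0.978). The others were Pcnxl2 for Calb1 (0.851), Creg2 for Car8 (0.906), Apoo for Itpr1 (0.936), Brinp1 for Ppp1r17 (0.936) and Cep192, a centrosome protein, for Slc1a6 (0.969).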

How the data were processed

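Per the labels and methods, the authors made libraries from RNA of sorted cells with the Trio kit, aligned paired reads to mm10 with STAR (version 2.5.0a), counted them on UCSC transcripts and normalized them with DESeq2 (version 1.30.1 in the submitters' processing notes). The deposited table holds a signal, in which the authors had divided the counts of each library by its size factor. Whole reads were recovered for 100% of the values (tolerance 0.01) and used for depth, floors, intervals and count tests. Counting intervals and floors cover counting error only, since reads carry no molecular identifiers. All 12 column names carry P28, so ages rest on the labels. How overlapping genes were counted is not given in the sources used here.

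The test was limma (version 3.58.1, run in R 4.3.3) over 15464 genes, those reaching 10 in 3 or more libraries, with log2(value + 1) as response, a mean per age, a variance trend and no block. Since the values were normalized, edgeR served only as an alternative. Alternatives were DESeq2 (version 1.42.0) and edgeR (version 4.0.16) with TMM on recovered reads, library totals, no filter, pseudocounts of 0.1 and 10, fits of 2 ages, the replicate block, an unadjusted threshold (p under 0.05 and log2 fold change over 0.75), sums in RPM, and each library left out. RPKM used reads and GENCODE M21 exon lengths. Libraries of an age differed by more than sampling noise in all 12 pairs. The fits were tested on simulated data. Named genes are all members, for the other Purkinje genes and relatives the up to 4 called genes with the largest change per step plus Slc1a3, Itpr2 and Calb2, the 2 most abundant of each other list, and the 10 most similar genes. Results of some single genes that the rule names are left out here. Others (Skor2, Ocm, Gad1, Gad2, Slc32a1, Pet100 and Chtf18) were named after their values were seen. Members and lists were chosen with earlier results of these data known. Lists of oligodendrocytes and their precursors, microglia, endothelial cells, red blood cells and choroid plexus were examined for composition only.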

Additional observations from a re-analysis of the deposited data

How the results depend on the processing

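Most results kept their direction and call. Of 168 counts of members called under an alternative, 142 were within 1.5 times the reported one, and 12 of 666 fold changes turned sign, all when a library was left out. Of the fold changes that kept their sign, 14 lost a call and 15 gained one. The 666 include members never called and fits without a library of an age outside the comparison. At the unadjusted threshold, 2 members were higher in P7 against P1, 5 in P14 against P7 (and 1 lower), and 1 in P28 against P14. The shares of all genes given above hold for the main limma fit at adjusted p under 0.05. They cannot be set beside counts under other settings. DESeq2, library totals, a pseudocount of 10 and the fit of only these ages each called 1 member lower at P14 than at P7 (Slc1a6), DESeq2 and edgeR 1 higher at P28 than at P14, and the fit of P1 and P28 alone 1 lower at P28. With each library left out, members higher in P7 against P1 ranged from 0 to 1 and those lower likewise, lower at P14 than at P7 from 0 to 1, higher at P28 than at P14 from 0 to 1, and lower at P28 than at P1 from 0 to 2. Fold changes that turned sign ranged in P7 against P1 from -0.10 to 1.09 for Calb1, from -0.0038 to 0.65 for Pvalb and from -0.0043 to 1.15 for Gng13, and in P28 against P14 from -0.40 to 0.33 for Pcp2, from -0.64 to 0.43 for Ppp1r17, from -0.57 to 0.13 for Pvalb and from -0.28 to 0.24 for Gng13. Other causes of these changes were not tested. With the replicate block, 3 members were higher at P14 than at P7, as without it, and no other count of members moved. Same-numbered libraries of different ages had correlations of deviations from -0.029 to 0.139. Pairs with different numbers were not set beside them, so these values cannot show whether same-numbered libraries share a litter or day. The labels do not say it either, and the numbers were used as names only in the main fit. Pcp2, Gng13, Ppp1r17 and Slc1a6 rest on few reads at some ages, which limits how well their low levels are known.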
